A study of Homo sapiens with 208 samples.

Results

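HRAS, NRAS, ARAF, BRAF, MAP2K1, MAP2K2 and MAPK3 encode proteins of the RAS-RAF-MEK-ERK cascade, and their mRNA was followed over 24 h in a gefitinib-sensitive and a gefitinib-resistant lung adenocarcinoma line. The genes were chosen by name, through the RefSeq accession that stands beside each probe in the array files, and they were 7 of the 16961 genes with a probe. Each had 1 probe, and each probe was well above background on every array of the study with 0 saturated spots. HRAS and NRAS encode GTPases and the other 5 genes encode kinases, so the name cascade kinases covers only a part of the group.

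In this cascade an activated receptor such as EGFR gathers adaptors and exchange factors, which load RAS with GTP. GTP-bound RAS recruits the RAF kinases to the plasma membrane, RAF phosphorylates MEK1 and MEK2, and these phosphorylate ERK1, which then acts on kinases and transcription factors in the cytoplasm and nucleus. In lung adenocarcinoma the cascade carries much of the growth signal of mutant EGFR. Its activity is set mainly by GTP loading and phosphorylation of the proteins, which an array of mRNA does not measure.

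PC9 is a human lung adenocarcinoma line with an activating deletion in EGFR, the receptor that gefitinib inhibits. PC9M2 was derived from PC9 by long growth in gefitinib and refining of the surviving clones. The authors of the study detected neither the gatekeeper mutation of EGFR nor amplification of MET in PC9M2. Cells of both lines were starved for 48 h and then received no treatment, 0.5 uM gefitinib, 100 ng/ml EGF (the ligand of EGFR), or both agents, with gefitinib given ahead of the first harvest. The harvests covered 26 time points between 0 and 24 h, with 1 array per time point in each of the 8 courses. There were no replicate arrays, so the 26 matched time points stood in for replicates, and a p-value measures the spread between time points of single courses of 1 parental and 1 derived line. The main tests treat time points as independent, although successive gefitinib differences were often correlated. In PC9 without EGF this correlation was 0.60 for HRAS, 0.61 for MAP2K1 and -0.19 for NRAS, with a median of 0.29 over all tested genes. Each array measured RNA of a whole culture, in which a change in some of the cells and a smaller change in every cell cannot be told apart.

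Values are log2 signal intensities after quantile normalization of all arrays, and a difference of 1 is 2-fold. The 4 arrays of a line from the same hour were on a common slide, which makes the treatment comparisons within-slide ones, whereas the lines shared 0 slides and 0 scan days, and line and scan day cannot be told apart. An array had 24464 to 35938 features well above background. The array of untreated PC9M2 cells at 11 h stood apart from its course, with a median correlation of 0.926 with the other arrays of that course, and results that rest on it are also given without the 11 h time point. Of the markers examined, all 9 epithelial genes had signals well above background on every array. The leukocyte marker PTPRC was so on 1 array, the fibroblast markers LUM and PDGFRB on 2 and 1, and the endothelial marker KDR on 4, while the probes of CD14 and ITGAM were so on every array, PECAM1 on 207 and VWF on 206.

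The sequences before the starts of HRAS, NRAS, MAP2K1 and BRAF are shown because the mRNA of these 4 genes moved with gefitinib in both lines, the first 3 down and BRAF up. They are the 250 bases upstream of the RefSeq transcription start in GRCh38.p14, written 5′ to 3′ on the gene's strand. They lie at chr11:535577-535826 (minus strand) for HRAS, chr1:114716772-114717021 (minus strand) for NRAS, chr15:66386662-66386911 (plus strand) for MAP2K1 and chr7:140924269-140924518 (minus strand) for BRAF. Capitals mark matches, on either strand, to the GC box GGGCGG, the CCAAT box CCAAT, the ETS core CCGGAAG, the cAMP response element core TGACG and the E-box CACGTG, and no match overlapped another in these 4 sequences.
HRAS: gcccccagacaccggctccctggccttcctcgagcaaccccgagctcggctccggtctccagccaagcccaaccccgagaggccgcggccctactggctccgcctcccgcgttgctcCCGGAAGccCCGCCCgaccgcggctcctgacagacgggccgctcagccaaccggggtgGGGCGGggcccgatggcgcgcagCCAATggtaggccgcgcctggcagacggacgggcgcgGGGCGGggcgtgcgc
NRAS: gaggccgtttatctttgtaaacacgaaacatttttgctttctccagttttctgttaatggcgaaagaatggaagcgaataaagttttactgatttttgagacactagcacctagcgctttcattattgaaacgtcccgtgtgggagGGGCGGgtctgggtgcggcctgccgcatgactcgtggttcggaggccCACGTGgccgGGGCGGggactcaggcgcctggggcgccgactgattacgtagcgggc
MAP2K1: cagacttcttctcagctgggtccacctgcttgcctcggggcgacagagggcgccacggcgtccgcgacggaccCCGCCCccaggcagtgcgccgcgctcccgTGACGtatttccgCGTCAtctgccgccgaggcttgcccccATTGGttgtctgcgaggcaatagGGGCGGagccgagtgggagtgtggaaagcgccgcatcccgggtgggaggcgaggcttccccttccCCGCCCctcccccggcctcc
BRAF: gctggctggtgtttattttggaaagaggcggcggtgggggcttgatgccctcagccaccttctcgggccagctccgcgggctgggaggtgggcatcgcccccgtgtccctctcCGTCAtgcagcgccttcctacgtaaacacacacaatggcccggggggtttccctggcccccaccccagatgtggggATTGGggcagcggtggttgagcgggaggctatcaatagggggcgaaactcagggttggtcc

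GC boxes, which are bound by factors of the SP family, occurred 3 times before HRAS, 2 times before NRAS, 3 times before MAP2K1 and 0 times before BRAF. Of the genes that did not move with gefitinib in both lines, MAP2K2 held 2, MAPK3 held 6 and ARAF held 0. The GC box stood in 42.6% of the 35116 promoters of the same length, the CCAAT box in 32%, the cAMP response element core in 21.2%, the ETS core in 8.52% and the E-box in 6.34%. The ETS core occurred once, before HRAS, among the 7 genes. A match of letters is a description of the sequence and not a site of binding. The stretches differed in composition, with a GC content of 77.2% for HRAS, 54.4% for NRAS, 71.2% for MAP2K1 and 64.8% for BRAF.

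The first comparison asked how the mRNA of the cascade responded when the receptor was inhibited. In both lines HRAS, NRAS and MAP2K1 fell with gefitinib and BRAF rose, by limma's moderated test on the differences at matched time points with Benjamini-Hochberg adjustment over 13261 tested genes at 0.05. This was 4 of the 7 genes in each line, while the test called 72.2% of all tested genes in PC9 (34.8% higher and 37.4% lower) and 66.5% in PC9M2 (32.5% higher and 34% lower). The share called among the 7 was thus near that of all genes, and the description below is of sizes and courses. ARAF, MAP2K2 and MAPK3 did not pass the test in either line without EGF. The courses of the 7 genes are shown for both lines and all treatments.

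**Figure D1:**
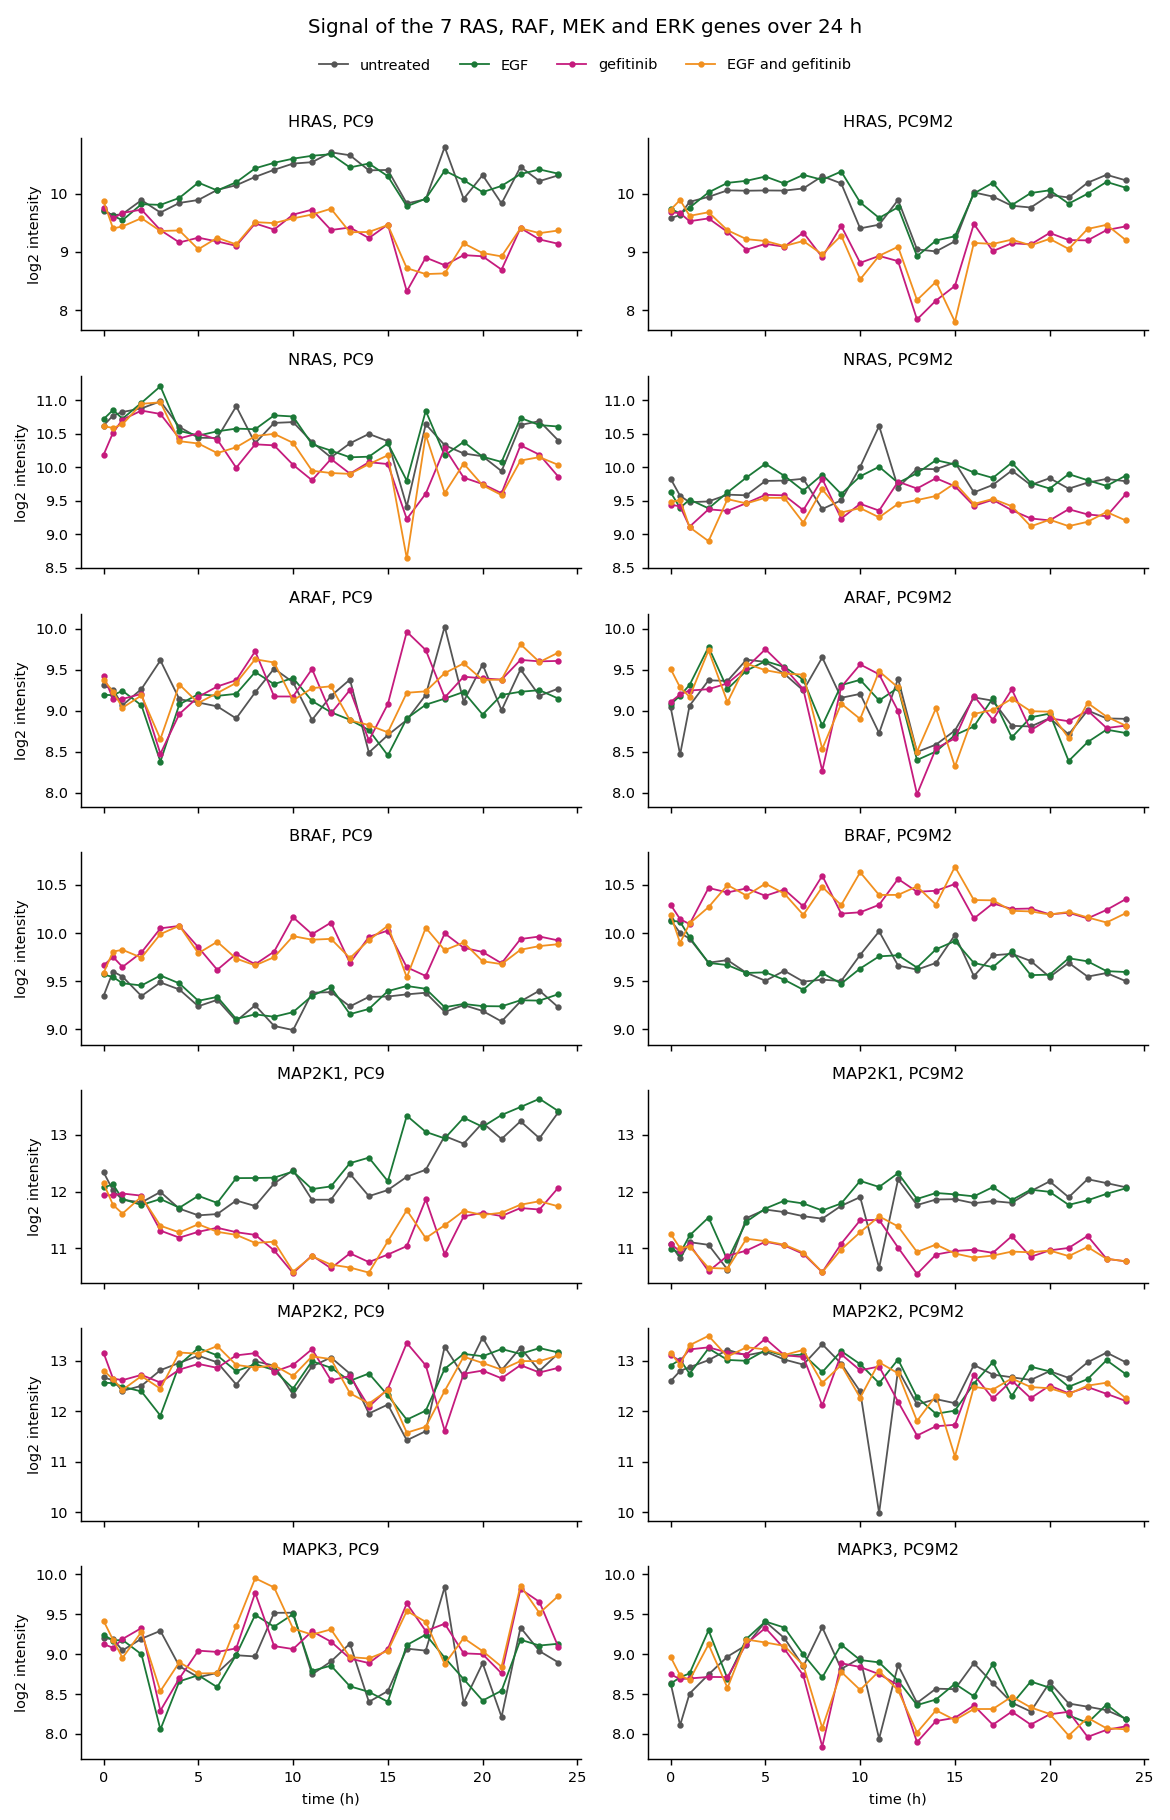
Log2 signal (vertical axis, after quantile normalization) of each gene against time in hours, for PC9 (left) and PC9M2 (right), with 1 point per array and 1 line per treatment; both panels of a gene share their vertical range. The courses with gefitinib lie apart from those without it at most time points for BRAF in both lines. For HRAS and MAP2K1 they lie mostly lower after the first hours, and their ranges overlap more in PC9M2 than in PC9. The courses with and without EGF lie close together, and single arrays stand out, such as untreated PC9M2 at 11 h for MAP2K2 (9.99).

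HRAS encodes a farnesylated RAS GTPase. In untreated PC9 cells its signal had a lowest value of 9.62, a median of 10.18 and a highest value of 10.80, and with gefitinib these were 8.32, 9.31 and 9.76. Of the 26 arrays with gefitinib, 21 lay below the lowest untreated array. The mean difference was -0.89 (standard error 0.096, adjusted p = 3.43e-09), a 1.85-fold lower signal, and 24 of 26 time points were lower. In PC9M2 the untreated course ran from 9.01 to 10.32 with a median of 9.95, and the gefitinib course from 7.84 to 9.68 with a median of 9.17. The groups overlapped more there, since both courses dipped at 13 to 15 h, the arrays of 1 scan day, and 7 of the 26 gefitinib arrays lay below every untreated array. The difference in PC9M2 was -0.73 (standard error 0.067, adjusted p = 2.17e-10), also lower at 24 of 26 time points.

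The fall of HRAS built up over the first hours. In PC9 the difference was 0.06 at 0 h, -0.05 at 0.5 h, 0.02 at 1 h, -0.16 at 2 h, -0.30 at 3 h and -0.68 at 4 h, and it stayed below 0 from 2 h to the end. Its mean was -0.25 ± 0.30 (SD, n = 7 time points) from 0 to 5 h, -0.91 ± 0.10 (n = 6) from 6 to 11 h, -1.20 ± 0.21 (n = 6) from 12 to 17 h and -1.25 ± 0.37 (n = 7) from 18 to 24 h. In PC9M2 the same means were -0.46 ± 0.44, -0.83 ± 0.31, -0.89 ± 0.23 and -0.77 ± 0.15. The difference there was 0.10 at 0 h, 0.03 at 0.5 h, -0.33 at 1 h, -0.37 at 2 h and -0.71 at 3 h. The slope over the day was -0.049 per hour in PC9 (standard error 0.00885, adjusted p = 3.13e-05) and -0.017 per hour in PC9M2, which did not pass the test (adjusted p = 0.105). Over the last 13 time points alone the slope in PC9 was 0.012 per hour and did not pass the test (adjusted p = 0.848). The largest difference in PC9, -2.03 at 18 h, was at a time point where the untreated array held the highest HRAS signal of its course, as it did for ARAF and MAPK3.

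NRAS encodes another farnesylated RAS GTPase. Its signal in PC9 ran from 9.42 through a median of 10.47 to 10.99 without treatment and from 9.23 through 10.15 to 10.85 with gefitinib. The 2 sets of arrays overlapped almost entirely, with 1 gefitinib array below every untreated one, yet within slides the gefitinib array was lower at 25 of 26 time points. The mean difference was -0.33 (standard error 0.060, adjusted p = 1.60e-05). In PC9M2 the range was 9.38 to 10.62 (median 9.78) without treatment and 9.11 to 9.84 (median 9.42) with gefitinib, and 12 of 26 gefitinib arrays lay below all untreated ones. The difference of -0.32 (standard error 0.061, adjusted p = 4.11e-05) was of about the size seen in PC9 and was negative at 24 of 26 time points. With time points 3 h apart, NRAS in PC9 no longer passed the test (difference -0.25, adjusted p = 0.0737).

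The NRAS difference in PC9 was -0.44 at 0 h and 0.06 at 5 h, with means of -0.16 ± 0.16 (n = 7) from 0 to 5 h and -0.36 ± 0.16 (n = 7) from 18 to 24 h. Its slope of -0.011 per hour did not pass the test (adjusted p = 0.216). A dip at 16 h was common to all 4 PC9 courses, with 9.42 in untreated cells, 9.23 with gefitinib, 9.80 with EGF and 8.64 with both. All 4 arrays were on 1 slide.

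BRAF, the RAF kinase with the highest basal activity, was the member that rose. In PC9 the untreated arrays lay between 8.99 and 9.60 with a median of 9.32, and the gefitinib arrays between 9.55 and 10.16 with a median of 9.83. In PC9M2 the ranges were 9.496 to 10.14 (median 9.68) and 10.09 to 10.59 (median 10.29). In each line 25 of the 26 gefitinib arrays lay above the highest untreated array, the clearest separation among the 7 genes, and all 26 time points were higher. The rise in PC9 was 0.55, or 1.46-fold (standard error 0.054, adjusted p = 5.69e-10). In PC9M2 it was 0.62, or 1.54-fold (standard error 0.052, adjusted p = 3.98e-11).

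The BRAF difference was above 0 from 0 h on without EGF, and smaller at 0.5 and 1 h than at 2 h. In PC9 it was 0.32 at 0 h, 0.15 at 0.5 h, 0.10 at 1 h and 0.45 at 2 h. At 0 h the untreated PC9 array also lay below that with EGF, by a difference of 0.22, and with EGF present the drug difference at 0 h was 0.015. In PC9M2 the differences were 0.16, 0.14 and 0.15 up to 1 h and 0.77 at 2 h, and with EGF present 0.06 at 0 h, -0.22 at 0.5 h, 0.14 at 1 h and 0.58 at 2 h. In PC9 the mean was 0.41 ± 0.22 (n = 7) from 0 to 5 h and 0.65 ± 0.09 (n = 7) from 18 to 24 h. In PC9M2 the corresponding means were 0.53 ± 0.36 and 0.61 ± 0.13. The slope over all 26 time points was not called in either line (adjusted p = 0.218 in PC9 and 0.613 in PC9M2). The BRAF probe was printed as 10 spots on each array, whose values had a median SD of 0.058 within an array, well under the difference.

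ARAF, the other RAF kinase measured here, did not pass the test. Its signal in PC9 ran from 8.49 to 10.03 (median 9.19) without treatment and from 8.48 to 9.96 (median 9.27) with gefitinib, and in PC9M2 from 8.47 to 9.65 (median 9.05) and from 7.98 to 9.75 (median 9.14). The courses overlapped almost fully. The difference was 0.09 in PC9 (95% interval -0.09 to 0.28, adjusted p = 0.361) and -0.00 in PC9M2 (95% interval -0.16 to 0.16, adjusted p = 0.971). So with gefitinib the signal of the RAF gene BRAF rose, while the interval of ARAF reached at most 0.28.

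MAP2K1, which encodes MEK1, had a mean fall in PC9 next to that of HRAS in size, a difference between genes that was not tested. Its arrays ran from 11.58 through a median of 12.08 to 13.40 without treatment and from 10.56 through 11.30 to 12.07 with gefitinib, with 17 of 26 gefitinib arrays below the lowest untreated one. The difference was -0.93 (standard error 0.11, adjusted p = 3.68e-08), a 1.90-fold lower signal, at 24 of 26 time points. In PC9M2 the untreated arrays ran from 10.63 to 12.22 (median 11.78) and the gefitinib arrays from 10.55 to 11.50 (median 10.96), and 3 of 26 lay below every untreated array. The difference there was -0.66 (adjusted p = 1.87e-06, standard error 0.10), with 22 of 26 time points lower. Over the first 13 time points alone MAP2K1 in PC9M2 did not pass the test, with a difference of -0.28 (adjusted p = 0.0976). Those time points include 11 h, where the untreated array stood apart and the difference was 0.84. Over the whole course without 11 h the difference was -0.72.

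The MAP2K1 difference was smaller in the first hours than later. In PC9 its mean was -0.25 ± 0.31 (n = 7) from 0 to 5 h, -0.88 ± 0.57 (n = 6) from 6 to 11 h, -1.11 ± 0.30 (n = 6) from 12 to 17 h and -1.49 ± 0.29 (n = 7) from 18 to 24 h. In PC9M2 the means were -0.18 ± 0.34, -0.40 ± 0.64, -1.005 ± 0.16 and -1.07 ± 0.27. The mean from 6 to 11 h includes the untreated array at 11 h that stood apart. The slopes of -0.061 per hour in PC9 (standard error 0.010, adjusted p = 1.24e-05) and -0.048 per hour in PC9M2 (standard error 0.010, adjusted p = 0.000502) both passed the test. HRAS and MAP2K1 were 2 of the 7 genes with a called slope in PC9 and MAP2K1 1 of 7 in PC9M2, against 52.2% and 40.9% of all tested genes. Over the last 13 time points alone the MAP2K1 slopes were -0.020 (adjusted p = 0.763) and -0.013 (adjusted p = 0.611) per hour. The larger late difference in PC9 came with a rise of the untreated course, from 11.58 at 5 h to 13.40 at 24 h, while the gefitinib course fell to 10.56 at 10 h and then rose to 12.07 at 24 h.

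MAP2K2, which encodes MEK2, behaved differently from MAP2K1. Its signal in PC9 ran from 11.43 to 13.46 (median 12.81) without treatment and from 11.62 to 13.36 (median 12.80) with gefitinib, and the difference was 0.07 (95% interval -0.18 to 0.33, adjusted p = 0.599). In PC9M2 the difference was -0.07 (95% interval -0.36 to 0.21, adjusted p = 0.662). That mean contains the untreated array at 11 h, where MAP2K2 stood at 9.99 against a course median of 12.85 and the difference was 2.90. Without the 11 h time point it was -0.19 and just passed the test (adjusted p = 0.04998), so 1 array decided this call. From 12 h on MAP2K2 in PC9M2 was lower with gefitinib at each time point, by -0.48 ± 0.16 (n = 6) from 12 to 17 h and -0.44 ± 0.27 (n = 7) from 18 to 24 h.

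MAPK3, which encodes ERK1, gave differences of opposite sign in the lines, and neither passed the test without EGF. In PC9 the untreated arrays ran from 8.21 to 9.84 (median 9.01) and the gefitinib arrays from 8.29 to 9.82 (median 9.08), a difference of 0.16 (adjusted p = 0.0963). In PC9M2 they ran from 7.94 to 9.41 (median 8.64) and from 7.84 to 9.33 (median 8.48), a difference of -0.17 (adjusted p = 0.0575). Both calls turned on single time points. Without 3 h the value in PC9 was 0.20 (adjusted p = 0.0170), and without 11 h the value in PC9M2 was -0.21 (adjusted p = 0.0112), and the latter was also called without 0, 0.5 or 1 h.

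**Figure D2:**
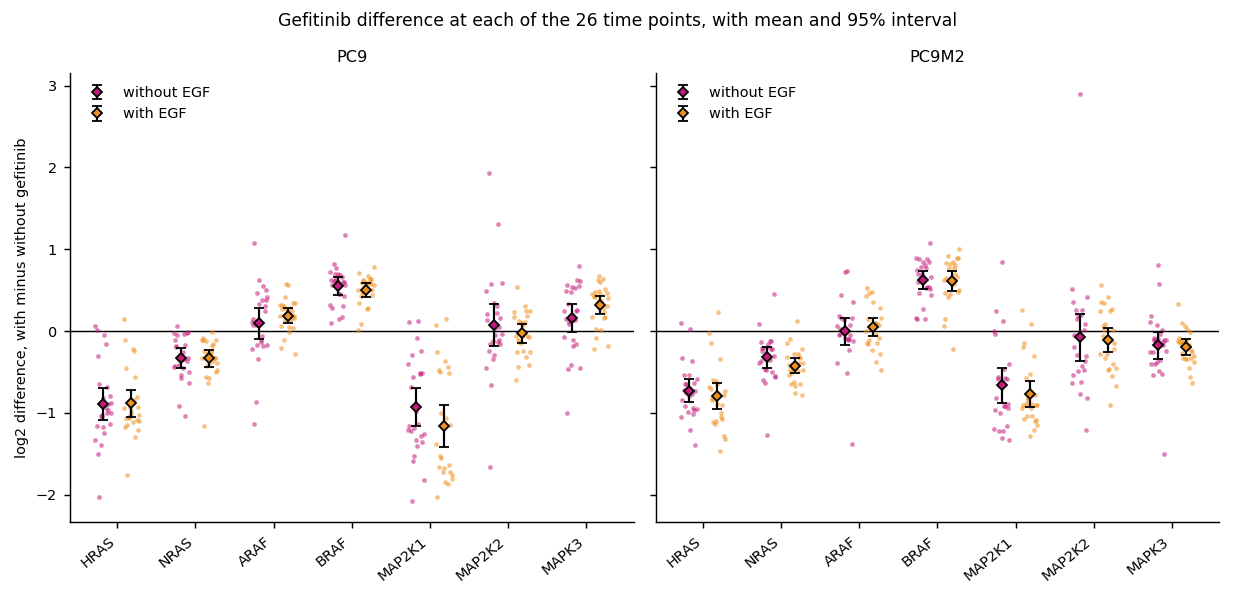
Log2 difference with minus without gefitinib (vertical axis) for each of the 7 genes in PC9 (left) and PC9M2 (right), with 1 small point per time point, a diamond at the mean and a bar for its 95% interval, without EGF (pink) and with EGF (orange). HRAS, NRAS and MAP2K1 lie below 0 and BRAF above it in both lines, while the intervals of ARAF and MAP2K2 without EGF cross 0.

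The same drug comparison in the presence of EGF used the 2 other courses of each line, so it shared no array with the first. In PC9 the test called 6 of the 7 genes, against 78.9% of all tested genes, and in PC9M2 5 of 7, against 74.4%. The HRAS differences were -0.88 in PC9 (adjusted p = 1.18e-10, standard error 0.081) and -0.79 in PC9M2 (adjusted p = 4.82e-10, standard error 0.077). NRAS was lower at all 26 time points in PC9, with a difference of -0.33 (standard error 0.050), and at 25 of 26 in PC9M2, with -0.42 (standard error 0.044). Both RAS genes therefore fell with and without the ligand.

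MAP2K1 fell by 1.15 in PC9 with EGF present (standard error 0.12, adjusted p = 2.51e-09), a 2.23-fold lower signal, with 20 of 26 arrays below the lowest array with EGF alone. In PC9M2 it fell by 0.77 (standard error 0.078, adjusted p = 1.05e-09). BRAF rose by 0.50 in PC9 (standard error 0.041, higher at 26 of 26 time points) and by 0.61 in PC9M2 (standard error 0.057, higher at 25 of 26), and 25 and 23 of the arrays with both agents lay above every array with EGF alone. These 4 genes moved in the direction seen without EGF.

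Of the other members, MAPK3 was called in both lines with opposite signs, ARAF in PC9 alone and MAP2K2 in neither. ARAF rose in PC9 by 0.19 (standard error 0.045, adjusted p = 0.000384), with 22 of 26 time points higher, whereas in PC9M2 the difference was 0.05 (adjusted p = 0.392). The rise of ARAF was late, with means of 0.08 ± 0.18 (n = 7) from 0 to 5 h and 0.39 ± 0.14 (n = 7) from 18 to 24 h, and over the first 13 time points alone it was not called (0.08, adjusted p = 0.227). MAPK3 rose by 0.32 in PC9, at 23 of 26 time points (adjusted p = 3.18e-06, standard error 0.052), and fell by 0.19 in PC9M2, at 22 of 26 (adjusted p = 0.000305, standard error 0.045). The fall in PC9M2 missed the threshold when courses were compared without pairing the time points (adjusted p = 0.0929), with scaling to the 75th percentile (-0.10, adjusted p = 0.0603), over the first 13 time points (adjusted p = 0.0654) and with time points 3 h apart (adjusted p = 0.227). MAP2K2 had differences of -0.03 (adjusted p = 0.647) in PC9 and -0.11 (adjusted p = 0.176) in PC9M2.

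**Figure D3:**
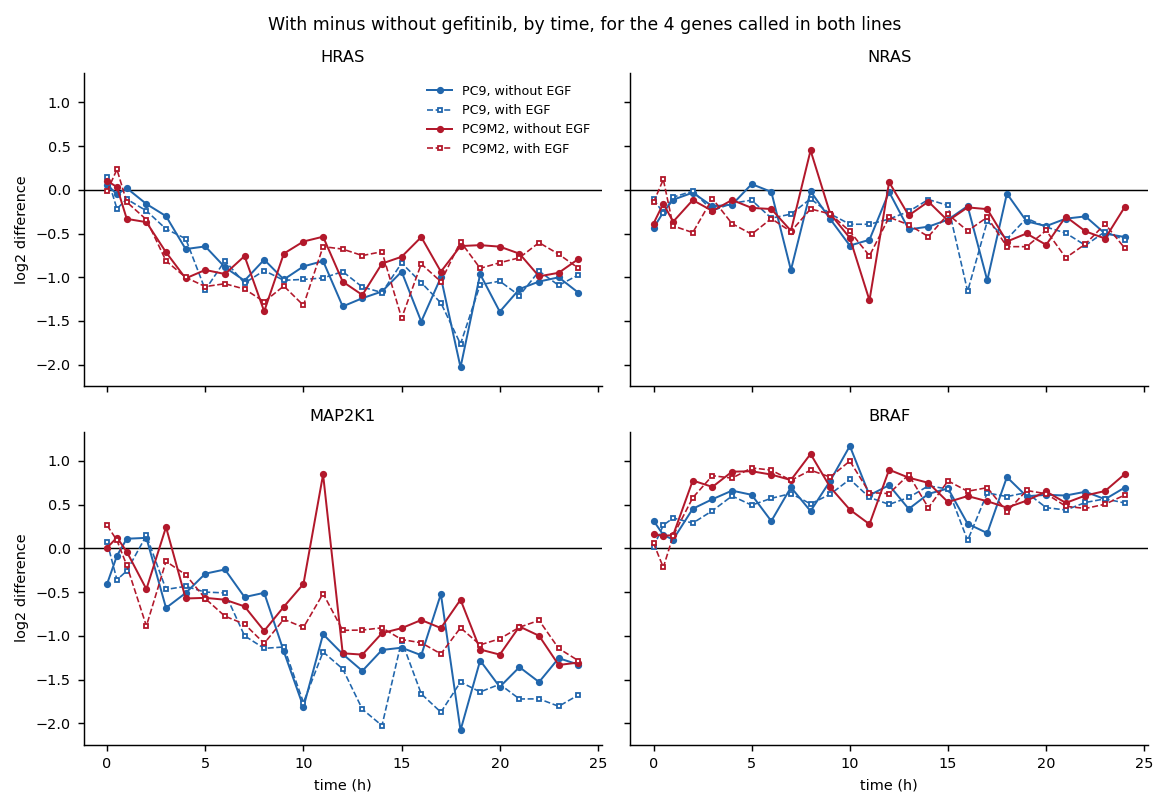
Log2 difference with minus without gefitinib (vertical axis) against time in hours for HRAS, NRAS, MAP2K1 and BRAF, in PC9 (blue) and PC9M2 (red), without EGF (filled circles) and with EGF (open squares). HRAS lies below 0 from 2 h on in both lines. MAP2K1 is mostly lower after 12 h than from 0 to 5 h in both lines, while BRAF is above 0 at nearly every point. The MAP2K1 value of 0.84 at 11 h in PC9M2 uses the array that stood apart.

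EGF on its own moved 1 of the 7 genes in PC9 and 0 in PC9M2, by limma's two-sided test, against 25.6% and 9.07% of all tested genes. MAP2K1 in PC9 had a median of 12.24 with EGF and 12.08 without, a difference of 0.24 (standard error 0.060, adjusted p = 0.00403), and was higher at 20 of 26 time points. The largest value was 1.08 at 16 h, where the arrays read 13.34 with EGF and 12.26 without. This rise did not pass the test when time points were unpaired (adjusted p = 0.682), over the first 13 time points (0.11, adjusted p = 0.254) or with time points 3 h apart (0.08, adjusted p = 0.562). In PC9M2 the MAP2K1 difference was 0.12 (95% interval -0.01 to 0.24, adjusted p = 0.277), and the test of the difference between the lines was not passed (-0.12, adjusted p = 0.633). That test called 0 of the 7 genes, also at an unadjusted p under 0.05, and 1.34% of all tested genes. The other 6 genes differed with EGF by at most 0.11 in size in PC9, and in PC9M2 no unadjusted p was under 0.05.

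In the presence of gefitinib, EGF moved 0 of the 7 genes in either line, against 0.0452% of tested genes in PC9 and 3.11% in PC9M2. At an unadjusted p under 0.05 the count was 0 in PC9 and 1 in PC9M2, where NRAS had a difference of -0.08 (p = 0.0190, adjusted p = 0.166, limma). The interval of MAP2K1 in PC9, the gene that had risen with EGF alone, was -0.10 to 0.12. The interaction of EGF and gefitinib was called for 0 of 7 genes in both lines, against 13.2% and 10.1% of tested genes. At an unadjusted p under 0.05 the count was 1 in PC9 and 0 in PC9M2. MAP2K1 in PC9 was next to the threshold, with an interaction of -0.23 (adjusted p = 0.0513), and it was called when any of the time points 0, 2, 3, 4, 15 or 18 h was left out and under 6 other settings.

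The lines were then compared at matched time points, which asks whether the resistant line differs from its parent in the level of these genes. The 4 comparisons share no arrays, though each reuses courses of the drug comparisons above. The test called 5 of the 7 genes without treatment, 4 with gefitinib, 4 with EGF and 4 with both, against 68.1%, 64.7%, 69.8% and 67.7% of all tested genes. NRAS, MAP2K1 and BRAF were called under each treatment, NRAS and MAP2K1 lower and BRAF higher in PC9M2. Because all PC9 arrays were scanned on other days than all PC9M2 arrays, these differences cannot be told apart from one between the scanning periods. Saturated features numbered 221 to 1702 on an array of PC9 and 0 on one of PC9M2, and none was a spot of these genes.

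Untreated PC9M2 cells had less NRAS, by 0.70 (adjusted p = 5.98e-08, standard error 0.089, at 24 of 26 time points), and the differences with gefitinib, EGF and both were -0.69, -0.72 and -0.81. Its 8 means fell into 4 pairs, each of 1 line with or without gefitinib. The means over time were 10.52 ± 0.32 (SD, n = 26) in PC9 with EGF, 10.48 ± 0.33 without treatment, 10.18 ± 0.48 with both and 10.15 ± 0.39 with gefitinib, followed by 9.80 ± 0.20, 9.78 ± 0.25, 9.46 ± 0.20 (gefitinib) and 9.38 ± 0.20 (both) in PC9M2. Neighbours in this order that differed only by EGF did not pass the test. The difference between the untreated lines was -1.11 ± 0.30 (n = 7) from 0 to 5 h and -0.40 ± 0.36 (n = 6) from 12 to 17 h.

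BRAF was higher in PC9M2 under each treatment, at 26 of 26 time points. Its size was 0.40 in untreated cells (adjusted p = 5.60e-08, standard error 0.051), 0.47 with gefitinib, 0.37 with EGF and 0.48 with both. The means were highest in PC9M2 with gefitinib (10.32 ± 0.14) and both agents (10.31 ± 0.18), then in PC9 with gefitinib (9.85 ± 0.17) and both (9.84 ± 0.14), then in PC9M2 with EGF (9.70 ± 0.18) and untreated (9.70 ± 0.18), and lowest in PC9 with EGF (9.33 ± 0.14) and untreated (9.30 ± 0.15). Untreated PC9M2 cells thus held a mean BRAF signal below that of gefitinib-treated PC9 cells.

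Untreated PC9M2 cells had less MAP2K1 than PC9, by 0.64 (adjusted p = 1.54e-06, standard error 0.098, at 23 of 26 time points), and the gene was lower by 0.76 with EGF, and by 0.37 with gefitinib (adjusted p = 0.00445) and 0.37 with both (adjusted p = 0.00315). The last 2 calls did not hold when the variance was widened for the correlation of successive time points (adjusted p = 0.119 and 0.271) or over the first 13 time points (adjusted p = 0.0762 and 0.0553). The gap between the untreated lines was widest late, at -1.03 ± 0.18 (n = 7) from 18 to 24 h. The MAP2K1 means were 12.51 ± 0.63 (EGF), 12.28 ± 0.55 (untreated), 11.36 ± 0.43 (both) and 11.35 ± 0.46 (gefitinib) in PC9 and 11.75 ± 0.39, 11.64 ± 0.47, 10.98 ± 0.22 and 10.98 ± 0.23 in PC9M2.

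MAPK3 was lower in PC9M2 by 0.33 in untreated cells (adjusted p = 0.00479), by 0.66 with gefitinib (adjusted p = 1.87e-05) and by 0.70 with both (adjusted p = 4.93e-06), and its difference of -0.19 with EGF was not called (adjusted p = 0.0909). The gaps with the drug were late ones, with means of -0.11 (gefitinib) and -0.09 (both) from 0 to 5 h and of -1.10 in both comparisons from 18 to 24 h (n = 7 each). Over the first 13 time points alone MAPK3 was not called without treatment (-0.26, adjusted p = 0.137), with gefitinib (-0.30, adjusted p = 0.108) or with both (-0.38, adjusted p = 0.0509), and the untreated call was also lost under a random block for scan day (adjusted p = 0.103). Its mean was 8.99 ± 0.37 in untreated PC9 and 8.65 ± 0.38 in untreated PC9M2. HRAS was lower in PC9M2 by 0.31 without treatment (adjusted p = 0.0161) and by 0.26 with EGF (adjusted p = 0.0254), though only at 15 and 14 of the 26 time points. Both HRAS calls were lost when the variance was widened for the correlation of successive time points (adjusted p = 0.268 and 0.418), and the second without 13 h (adjusted p = 0.0502). The largest HRAS gap between the untreated lines was -1.62 at 13 h, in the stretch where all 4 PC9M2 courses dipped. ARAF and MAP2K2 were not called under any treatment, with mean differences between -0.24 and 0.04. For ARAF these means joined early and late values of opposite sign, 0.27, 0.34 and 0.28 from 0 to 5 h with gefitinib, EGF and both, and -0.54, -0.44 and -0.61 from 18 to 24 h (n = 7 each). ARAF was called with gefitinib when 3, 4, 5 or 10 h was left out (adjusted p down to 0.0240) and with both when 2, 3 or 5 h was (adjusted p down to 0.0365).

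**Figure D4:**
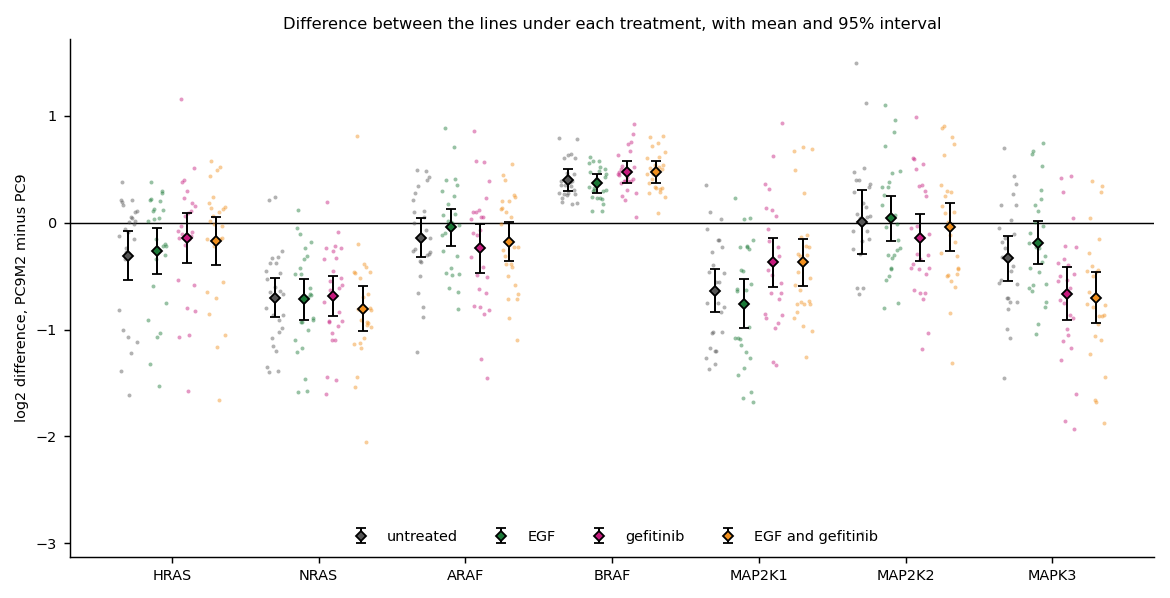
Log2 difference PC9M2 minus PC9 (vertical axis) for each gene under each treatment, with 1 small point per time point, a diamond at the mean and a bar for its 95% interval. NRAS, MAP2K1 and MAPK3 have means below 0 and BRAF means above 0 under each treatment, and the spread over time is narrowest for BRAF.

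The effect of gefitinib was compared between the lines by the difference of the 2 drug effects at each time point. MAPK3 was the only one of the 7 genes called, against 34.1% of all tested genes (17.5% higher and 16.6% lower in PC9M2). Its drug effect was lower in PC9M2 by 0.33 (standard error 0.13, adjusted p = 0.0452), from effects of 0.16 and -0.17, at 17 of 26 time points. This call was lost without any one of 16 of the 26 time points (adjusted p up to 0.0750), with scaling to the 75th percentile (-0.30, adjusted p = 0.0794), with normexp background correction (-0.21, adjusted p = 0.0580) and over the first 13 time points (-0.04, adjusted p = 0.931). MAP2K1 had a difference of 0.26 (95% interval 0.03 to 0.50, adjusted p = 0.0789) and HRAS one of 0.16 (95% interval -0.02 to 0.34, adjusted p = 0.159), in both cases a smaller fall in PC9M2 that did not pass the test. For BRAF and NRAS the intervals were -0.06 to 0.21 and -0.13 to 0.15.

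Change over time was tested in each course with a spline of time, and the range of the fitted curve gives its size. In PC9 the test called 3 of the 7 genes without treatment, 3 with gefitinib, 5 with EGF and 5 with both, against 66.5%, 77.8%, 78.8% and 83.1% of tested genes. In PC9M2 it called 6, 3, 7 and 5, against 67.5%, 63.7%, 74.9% and 67.6%. With time points 3 h apart these counts were 0 or 1 in every course, with 9 arrays left in each course. MAP2K1 had the largest fitted range in PC9, 1.63 without treatment (adjusted p = 2.15e-07) and 1.63 with EGF (adjusted p = 2.67e-09), with troughs at 6 and 3.5 h and the peak at 24 h. In PC9M2 without treatment the fitted MAP2K1 curve ended 1.29 above its start (adjusted p = 0.000475), while the arrays read 11.07 at 0 h and 12.08 at 24 h, whereas with gefitinib its range was 0.13 and not called (adjusted p = 0.942). In untreated PC9M2 the arrays went from 10.63 at 3 h to 11.53 at 4 h, between which the scan day changed. Arrays of neighbouring hours were scanned together, on 8 days for PC9 and 9 for PC9M2, so time and scan day are confounded in every course. With scan day as a random block the counts were 2, 3, 2 and 2 in PC9 and 4, 1, 5 and 2 in PC9M2, and MAP2K1 in untreated PC9M2 was no longer called (adjusted p = 0.0627).

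HRAS changed over time in all 8 courses, with ranges from 0.89 to 1.12. In untreated PC9 it rose to a peak at 11.5 h, and in PC9M2 the fitted trough was at 12 to 13 h under each treatment. The PC9M2 arrays of 13 to 15 h, and no others, were scanned on 1 day, and the untreated HRAS signals were 9.89 at 12 h, 9.04, 9.01 and 9.18 at 13, 14 and 15 h and 10.02 at 16 h, so this dip cannot be told apart from that scan day. MAPK3 changed in all 4 PC9M2 courses, with ranges from 0.89 to 1.07, a peak between 4 and 5.5 h and the lowest fitted value at 24 h, and in 0 of the 4 PC9 courses (adjusted p from 0.116 to 0.854). MAP2K2 also peaked at 4 to 4.5 h in the 4 PC9M2 courses. The PC9M2 arrays of 4, 5 and 6 h made up another scan day, from which these peaks cannot be told apart. With scan day as a random block, MAPK3 in PC9M2 with gefitinib (adjusted p = 0.114) and MAP2K2 in 3 of the 4 PC9M2 courses (adjusted p from 0.0612 to 0.342) did not pass the test, nor did HRAS in PC9M2 with gefitinib (adjusted p = 0.0739). BRAF had ranges of 0.12 to 0.36 in PC9, where it was called with EGF alone (0.36, adjusted p = 0.0339), and in PC9M2 it fell from 10.14 at 0 h to a trough at 6 h in untreated cells, with a range of 0.57 (adjusted p = 0.00383).

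Several members moved together at single time points. At 8 h in PC9M2 the gefitinib difference was at its lowest for HRAS (-1.39), ARAF (-1.38), MAP2K2 (-1.21) and MAPK3 (-1.50) and at its highest for NRAS (0.45) and BRAF (1.08). At 11 h in the same line it was at its highest for MAP2K1 (0.84), MAP2K2 (2.90) and MAPK3 (0.81) and at its lowest for NRAS (-1.26). At 3 h in PC9 the untreated array was above the other 3 for ARAF and MAPK3, with EGF differences of -1.23 and -1.24. These joint moves rest on 1 array or slide each.

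Over all arrays, ARAF and MAPK3 had the highest correlation between members (Pearson's r = 0.77), followed by ARAF and MAP2K2 (0.63) and HRAS and MAP2K1 (0.58). BRAF ran against the genes that fell with gefitinib, with r of -0.77 with MAP2K1, -0.75 with HRAS and -0.58 with NRAS. The paralogs MAP2K1 and MAP2K2 had an r of 0.15. These are descriptions, as the arrays share lines, treatments, slides and normalization.

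The gene whose signal was most like that of MAP2K1 over all arrays was GRB2 (r = 0.91), the adaptor that links EGFR to the exchange factor SOS, followed by MYO1E (0.89), a class I myosin. For BRAF the nearest were KLHDC2 (0.93) and PELI2 (0.91), for HRAS RHBDD3 (0.92) and GATD1 (0.91), and for NRAS YARS2 (0.88), a mitochondrial tyrosyl-tRNA synthetase, and PRXL2C (0.87). For ARAF they were SLC12A9 (0.87) and AP1B1 (0.85), for MAP2K2 URGCP (0.82) and SCAMP3 (0.81), and for MAPK3 ARRDC1 (0.85) and the retinoic acid receptor RARG (0.84). The lowest of these values were those of MAP2K2.

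Lists of genes around the cascade give the setting of these changes with gefitinib. The lists were chosen with earlier results of these data known, so their counts are descriptions. All 14 genes induced by ERK signaling were lower in PC9, with a median difference of -3.34 against -0.03 over all tested genes, where 37.4% were called lower. In PC9M2 12 of the 14 were lower, with a median of -1.04 against -0.01 and 34% called lower. The MAPK phosphatase DUSP6 changed by -6.81 in PC9, where its median was 13.34 without and 6.13 with gefitinib, the signaling inhibitor SPRY4 by -4.998 and the transcription factor ETV5 by -4.83. The low signals exceeded background clearly on 24, 20 and 11 of the 26 gefitinib arrays, so the last 2 folds in particular have an uncertain lower end. By the test of the difference between the lines, 13 of the 14 genes had a less negative, or a positive, gefitinib difference in PC9M2. Their fall with the drug was thus smaller or absent there. The median of this contrast was 1.97 against 0.02 over all tested genes, of which 17.5% were called higher. For EGR1, an immediate early transcription factor, the median went from 10.13 to 6.29 with gefitinib in PC9 and from 9.81 to 10.64 in PC9M2, where its mean difference of 0.59 did not pass the test (adjusted p = 0.0909). The falls of HRAS, NRAS and MAP2K1, at most 0.93, were far smaller than those of most ERK-induced genes in PC9.

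Upstream of RAS, 14 adaptors and exchange factors were tested, of which 4 rose and 7 fell in PC9 and 4 rose and 6 fell in PC9M2, where all tested genes gave 34.8% higher and 37.4% lower in PC9 and 32.5% and 34% in PC9M2. The adaptor SHC3 fell by 2.74 in PC9, and the exchange factor SOS2 rose by 1.24 in PC9 and by 0.90 in PC9M2. Of 6 tested RAS GTPase-activating proteins, which return RAS to its GDP-bound state, 1 rose and 2 fell in each line, against the same shares. RASA4 rose by 1.87 in PC9 and 0.71 in PC9M2, and RASAL2 fell by 0.81 and 0.45. The medians of these lists were between -0.17 and -0.08.

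Of 9 tested genes whose products process or traffic RAS, 1 rose and 8 fell in PC9 and 1 rose and 5 fell in PC9M2. Their medians were -0.36 and -0.14. Of all tested genes, 34.8% were called higher and 37.4% lower in PC9, and 32.5% and 34% in PC9M2. The methyltransferase ICMT fell by 0.97 and 0.55, the depalmitoylating enzyme LYPLA1 by 0.77 and 0.67, and the farnesyltransferase subunit FNTB rose by 0.77 in PC9. The mRNA of HRAS and NRAS, whose proteins are processed or trafficked in this way, also fell in both lines, and a link between these falls was not tested. Of 19 tested scaffolds and modulators of RAF, MEK and ERK, 5 rose and 9 fell in PC9 and 5 rose and 7 fell in PC9M2, near the shares of all genes, and the β-arrestin ARRB1 rose by 1.58 and 1.33 while ARRB2 fell by 1.26 and 0.73. Of 8 kinases downstream of ERK, 0 rose and 3 fell in PC9 and 3 rose and 3 fell in PC9M2. The same shares of all tested genes apply to these counts. Among the kinases that fell was RPS6KA4, which encodes MSK2, lower by 1.11 and 0.76.

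**Figure D5:**
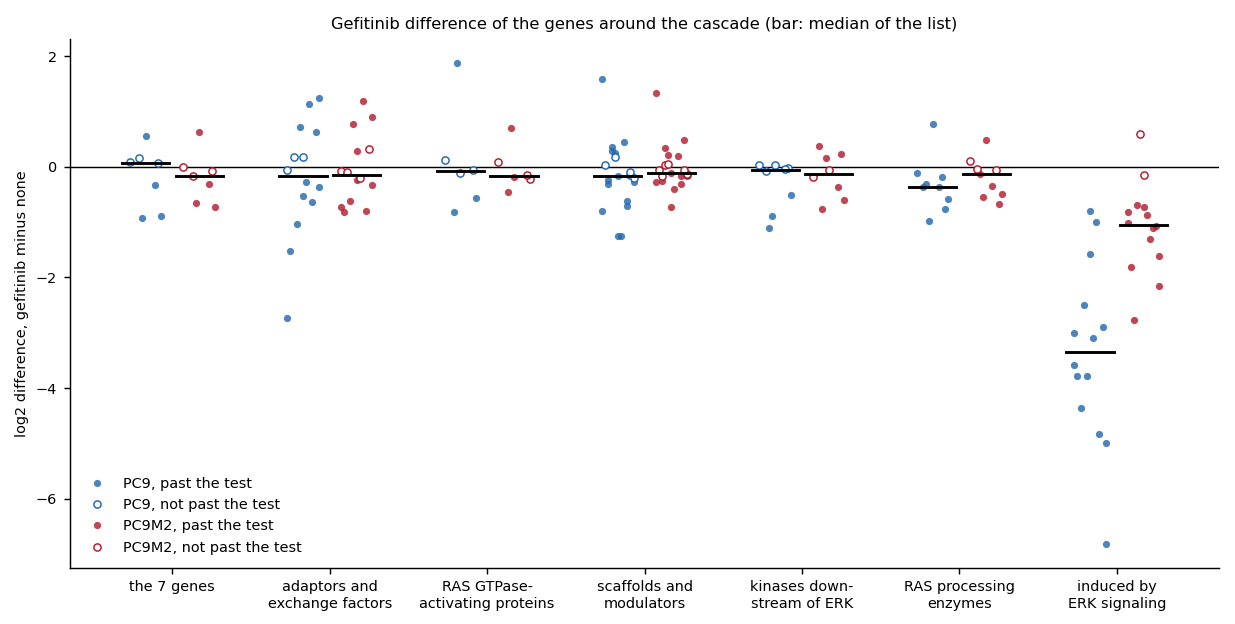
Log2 difference gefitinib minus no treatment (vertical axis) of each tested gene of 7 groups along the cascade, in PC9 (blue) and PC9M2 (red), with filled points for genes past the test, open points for the others and a bar at the median of each group. The 7 cascade genes lie between -0.93 and 0.62, and the genes induced by ERK signaling reach -6.81 in PC9.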

How the data were processed

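RNA of PC9 and PC9M2 cells was hybridised to 208 one-colour Agilent arrays, 1 per treatment and time point. The authors deposited Feature Extraction output (version 10.5.1.1 per the file headers), from which the processed signal intensity was used, and a table of normalized intensities, used as an alternative. Intensities were quantile normalized over all arrays, floored at 1 and log2 transformed, after removal of outlier-flagged spots (0.263% of spots). Spots of a probe were averaged, and a gene with several probes took the probe of largest variance. Symbols came from RefSeq accessions (24794 of 41000 probes matched, 16206 did not), giving 16961 genes, and promoters from RefSeq (GRCh38.p14), using the first of several for MAP2K1 and MAP2K2. Of these genes 13261 were tested, those well above background on 13 or more of the 26 arrays of a course, and 3700 were left out as dim.

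Matched differences between courses, their slope with time and a natural spline of time with 4 degrees of freedom were tested with limma 3.58.1 in R 4.3.3 (two-sided, Benjamini-Hochberg, 0.05). The paired tests were tried on simulated data. The members and lists were chosen with earlier results of these data known. Genes named from the lists were the 3 with the largest absolute difference in a comparison, and genes most like a member the 2 with the highest correlation. Arrays of a line at the same time point shared a slide, and their deviations from the course means correlated at 0.274 to 0.724 on average, so the time points were paired. The files lack the mean signal, so the normexp alternative used the median signal in place of the planned mean. Precision is limited by the number of arrays.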

Additional observations from a re-analysis of the deposited data

Results flagged for a closer look

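The effect of gefitinib differed between PC9M2 and PC9 by the test of the difference itself for MAPK3 and for the 3 ERK-induced genes with the largest difference. MAPK3 had a drug effect lower in PC9M2 by 0.33 (log2 difference -0.33, adjusted p = 0.0452, limma), a call that rested on single time points. The signed gefitinib difference was higher in PC9M2 by 4.65 for the phosphatase DUSP6, by 4.38 for the immediate early transcription factor EGR1 and by 3.72 for the ETS factor ETV5. All 3 fell with gefitinib in PC9, and in PC9M2 DUSP6 and ETV5 fell less and EGR1 did not fall. In PC9 the ETV5 signal was well above background on 11 of 26 arrays with gefitinib.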

How the results depend on the processing

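Of 1296 member values recomputed under an alternative, 1106 kept their direction and side of the threshold, 149 fell short of it, 39 newly passed it and 2 reversed. The 2 were MAP2K2 with both agents minus EGF in PC9 over the first 13 time points (0.15 against -0.03) and the HRAS slope in PC9 over the last 13 (0.012 per hour against -0.049). Values called neither in the main fit nor under the alternative were counted apart. Among such differences, 71 of 1040 had the other sign under the alternative, where they were at most 0.31 in size. Among such slopes it was 7 of 136, at most 0.066 per hour in size. Where no value is given for it, the cause of a change was not tested.

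Counts below are of the 7 genes called. With a log2 difference of at least 1 required as well, they were 0 for gefitinib in both lines, 1 in PC9 and 0 in PC9M2 for gefitinib with EGF present, 0 for EGF in PC9, 0 in each of the 4 line comparisons and 0 for the gefitinib effect between lines. A one-sided test for higher in PC9M2 gave 1 in each line comparison. Over the first 13 time points the line comparisons gave 3 without treatment, 2 with gefitinib and 2 with both agents, and EGF in PC9, the gefitinib effect between lines and the slope in PC9M2 gave 0. Over the last 13, the gefitinib effect between lines gave 2 and the slopes 0 in both lines. With time points 3 h apart, EGF in PC9 and the gefitinib effect between lines gave 0, the untreated lines 3, the slope in PC9 1, and change over time 1 in PC9 with gefitinib and with EGF and 0 in the other 6 courses. With scan day as a random block, change over time gave 2 in PC9 with EGF, 2 in PC9 with both, 2 in PC9M2 with both and 1 in PC9M2 with gefitinib.

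The interaction in PC9 gave 1 (MAP2K1) with 75th percentile scaling, the probe of highest mean, the mean of all probes, the filter for all 26 arrays, a floor of 16 or outlying points replaced by a spline. The gefitinib effect between lines gave 2 with normexp or the spline replacement and 0 with 75th percentile scaling, no filter on dim genes, variance widened for autocorrelation or the methods' t-test. The slope in PC9M2 gave 2 with 75th percentile scaling, 3 with the spline replacement and 2 without 11 h, a setting chosen after seeing the data. EGF in PC9M2 gave 1 with the spline replacement. Without the replicate block, that is with time points unpaired, EGF in PC9 gave 0, and the MAPK3 fall in PC9M2 with both agents was lost (-0.19, adjusted p = 0.0929).

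Leaving out each time point in turn gave 4 to 5 genes in PC9 and 4 to 6 in PC9M2 for gefitinib, 0 to 1 for the interaction in PC9, 0 to 2 for the gefitinib effect between lines, 2 to 3 and 1 to 4 for the slopes, and 3 to 5 for the lines with EGF.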
